A study of Mus musculus with 12 samples.

Results

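The carriers of solute carrier family 25 (SLC25) were examined in mouse brown adipose tissue, the fat depot that makes heat by uncoupled respiration. They were taken as all genes of the second deposited table whose symbol starts with Slc25a, which gave 38 of the 12380 genes in that table. The RPKM table, from which the values come, lists 47 such symbols among 24452 genes. The other 9, Slc25a2, Slc25a13, Slc25a18, Slc25a21, Slc25a31, Slc25a41, Slc25a43, Slc25a53 and Slc25a54, did not exceed an RPKM of 0.574 in any library.

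Total RNA of 12 libraries was sequenced, 3 for each of 4 groups of male C57BL/6J Bom mice, 12 weeks of age and kept at 30 °C on standard chow. WT groups were floxed littermates without Cre, so they carry the floxed Esrra and Esrrg alleles too. ERRKO groups (ERRαγAd-/-) carry the same floxed alleles and a Cre driven by the adiponectin promoter, which deletes the estrogen-related receptors ERRα and ERRγ in adipocytes and leaves the other cells of the tissue with both genes. WT_PBS and ERRKO_PBS received PBS, and the 2 groups with CL in their name received 1 mg/kg of CL316,243, which activates the β3-adrenergic receptor. Both were given by daily injection into the abdomen for 10 days at Zeitgeber time 4, and tissue was collected 24 hours after the last agonist dose. Nothing in the labels says that the 3 libraries of a group came from separate animals, so each p-value speaks only of spread among the sequenced samples, which may be technical.

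SLC25 proteins sit mostly in the inner mitochondrial membrane, where each moves one or a few solutes, such as nucleotides, phosphate, acylcarnitines, organic acids, amino acids and cofactors, between cytosol and matrix. Ucp1, the uncoupling protein of brown fat, belongs to the same family under another name. In a heat-producing adipocyte these carriers bring in fuel and cofactors for oxidation, and the citrate carrier also sends carbon out for fatty acid synthesis. ERRα and ERRγ are nuclear receptors known to drive genes of mitochondrial oxidation through a DNA element that contains AGGTCA.

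Promoter stretches are shown for 3 carriers whose levels recur below: Slc25a39, which was lower in ERRKO, Slc25a34, which had the highest agonist response, and Slc25a25. The last was called higher with the agonist in ERRKO and not in WT, a call lost in 7 alternative settings. These 3 were chosen after the values were seen, among members whose promoter holds one of the searched motifs. Each stretch runs 5′ to 3′ in the gene's direction, from 250 to 51 bases before a RefSeq transcription start, and overlaps no annotated exon. Those of Slc25a39 and Slc25a25 lie in an intron of the annotated gene, since that start lies inside the gene, and that of Slc25a34 lies before the gene. Capitals mark TGACCT, the reverse complement of the core motif AGGTCA, in Slc25a39 and Slc25a34, and the cAMP response element TGACGTCA in Slc25a25.
Slc25a39 (chr11:102407568-102407767, minus strand, GRCm38.p6): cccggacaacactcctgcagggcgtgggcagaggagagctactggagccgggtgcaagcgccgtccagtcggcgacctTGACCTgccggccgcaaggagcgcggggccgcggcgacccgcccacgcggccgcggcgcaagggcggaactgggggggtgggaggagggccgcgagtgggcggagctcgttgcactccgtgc
Slc25a34 (chr4:141623885-141624084, minus strand, GRCm38.p6): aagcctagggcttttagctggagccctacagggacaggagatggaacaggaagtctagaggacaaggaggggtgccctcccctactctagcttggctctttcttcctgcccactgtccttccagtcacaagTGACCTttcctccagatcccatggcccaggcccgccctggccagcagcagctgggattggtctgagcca
Slc25a25 (chr2:32424117-32424316, minus strand, GRCm38.p6): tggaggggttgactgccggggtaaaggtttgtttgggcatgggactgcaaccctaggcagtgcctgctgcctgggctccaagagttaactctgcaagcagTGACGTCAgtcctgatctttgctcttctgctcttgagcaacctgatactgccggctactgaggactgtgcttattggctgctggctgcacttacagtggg

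Windows of 300 bases around the start, 37 in number, were found in RefSeq for 29 of the 38 carriers. The full estrogen-related receptor element, searched as TNAAGGTCA on both strands, was in none of these windows, against 1.28% of the 32851 promoter windows in the table. Its stricter form TCAAGGTCA was also in none, against 0.423% of all windows. The core motif AGGTCA, which lies within both, was in the windows of Slc25a34, Slc25a39, Slc25a45 and Slc25a47, 10.8% of the member windows and 16.3% of all windows. TGACGTCA, a motif added after the data were seen, was in those of Slc25a25 and Slc25a36, 5.41% of member windows and 1.79% of all windows. The windows are short, and letters outside them were not searched. On GRCm38, GENCODE places the carriers with the largest differences described below, all protein-coding, on separate loci: Slc25a10 at chr11:120491840-120499187 (plus strand), Slc25a20 at chr9:108662088-108684641 (plus strand), Slc25a42 at chr8:70184340-70212305 (minus strand), Slc25a48 at chr13:56438355-56474239 (plus strand) and Slc25a34 at chr4:141618824-141623821 (minus strand).

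Levels are given as RPKM scaled by the median of ratios, under which a typical gene is level across libraries, and are written in the order replicate 1, 2 and 3. Statements on the order and overlap of groups refer to these scaled levels, and some differ without the scaling. Without that scaling, on the deposited scale, the median of 12249 tested genes was 0.53 (log2) higher in ERRKO than in WT under PBS and 0.63 higher under CL316,243. With the agonist the shift was -0.26 in WT and -0.16 in ERRKO, and the interaction shifted by 0.09. Changes are differences in log2(scaled RPKM + 0.5) with their SE from limma, which understate the change of low genes, and p-values were adjusted over all tested genes by the Benjamini-Hochberg method. A gene was called at an adjusted p under 0.05. Where the deposited scale gave another call for a carrier, its value on that scale is given. Depth went with genotype: each WT library held 8478310 to 9727167 recovered reads, and each ERRKO library 12468001 to 13263567. The part of this depth difference in the results, and in which genes reached the second deposited table, was not tested.

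Esrra, the gene of ERRα, lay between 5.25 and 8.89 in the 6 ERRKO libraries and between 41.6 and 83.1 in the 6 WT libraries. Esrrg lay between 2.29 and 4.71 in ERRKO_PBS and between 4.40 and 8.26 in the other groups, ERRKO_CL included, so the check of the genotype rests on Esrra. The summed level of 9 brown adipocyte markers lay at 2884 to 4912 (WT_PBS), 7169 to 9200 (WT_CL), 402 to 697 (ERRKO_PBS) and 1218 to 1539 (ERRKO_CL), and none of the 9 was at 0 throughout. The sum of 7 measured white adipocyte markers was 252 to 350, 62.1 to 68.3, 1291 to 1352 and 953 to 1094 in the same order. For 7 measured macrophage markers it was 178 to 378, 102 to 131, 169 to 212 and 106 to 154. For 8 pan-adipocyte markers it was 11590 to 16750, 17220 to 18320, 12340 to 16650 and 20250 to 20500. The brown and white sums did not overlap between genotypes under either treatment or between treatments in either genotype. The macrophage sum overlapped between genotypes under both treatments and was lower with the agonist in each, and the pan-adipocyte sum overlapped between genotypes under PBS. The part of these sums in the results was not tested. In a bulk sample, fewer cells of a type and less RNA per cell cannot be told apart. Muscle transcripts stood high in ERRKO_PBS replicate 3 and ERRKO_CL replicate 3. There 18 skeletal muscle markers summed to 4031 and 2138, against 47.3 to 991 in the other 10 libraries. All 18 were higher in ERRKO, by a median log2 change of 3.59 (PBS groups) and 2.95 (agonist groups), while the sums overlapped between genotypes. Called higher were 0 and 1 of them, and on the deposited scale 16 and 10, against 66.3% and 70.5% of all genes. How far a fit with muscle level as a covariate separates muscle from genotype was not tested.

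On the median-ratio scale the summed level of the 38 carriers was lower in every ERRKO library than in any WT library, and within each genotype higher with the agonist. It was 1559, 1418 and 1814 in WT_PBS, 2364, 2667 and 2380 in WT_CL, 923.5, 1038 and 1047 in ERRKO_PBS, and 1282, 1272 and 1339 in ERRKO_CL. No 2 groups overlapped on that scale, while on the deposited scale the sums of WT_PBS overlapped those of both ERRKO groups. The sum itself was not tested. As a share of all deposited RPKM, the carriers took 0.479% to 0.524% (WT_PBS), 0.625% to 0.694% (WT_CL), 0.363% to 0.392% (ERRKO_PBS) and 0.426% to 0.450% (ERRKO_CL). This share is itself a scaling, to the summed RPKM of each library. That sum was higher in the ERRKO libraries (333728 to 373754) than in the WT libraries (266506 to 310684). Slc25a4 and Slc25a5, the adenine nucleotide translocators, held the highest levels in WT_PBS with 19.4% and 17.4% of the family sum, and Slc25a20 held the highest level in WT_CL with 15.8%.

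**Figure D1:**
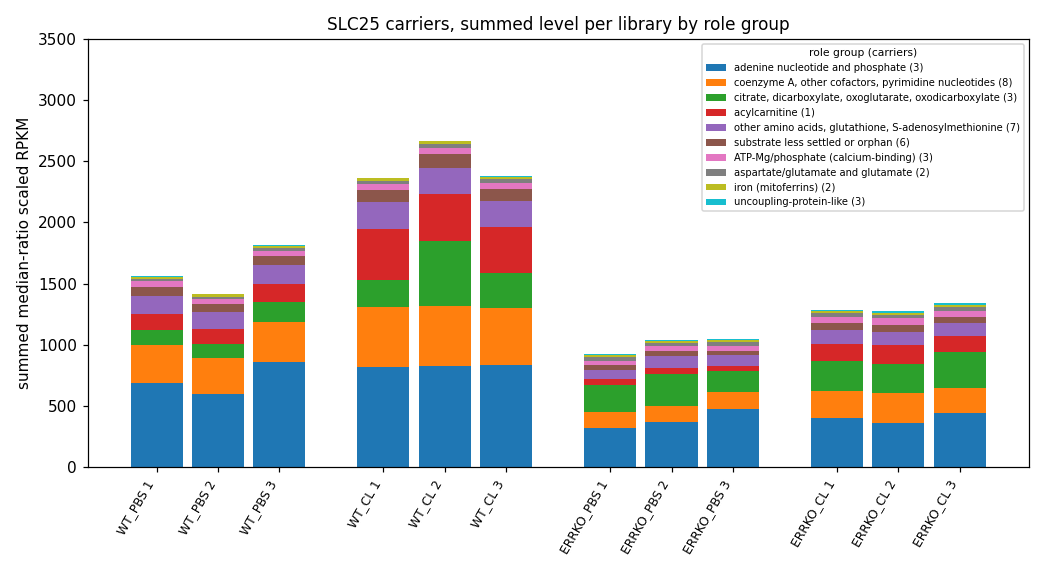
Summed level of the 38 carriers in each library (bars, scaled RPKM), divided by role group, with the number of carriers in brackets. WT_CL bars are the highest (2364 to 2667) and ERRKO_PBS bars the lowest (923.5 to 1047).

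Under PBS, 17 of the 38 carriers were called lower in ERRKO than in WT and 4 higher, where 18.4% of all tested genes were called lower and 15.8% higher. Their median change was -0.24, against 0.01 over all tested genes. On the deposited scale 11 were called lower and 17 higher, where 6.22% of all genes were lower and 66.3% higher. Without ERRKO_PBS replicate 1 the count of higher carriers was 2, with the share of all genes in that setting not given here. Under CL316,243, 22 carriers were called lower and 4 higher in ERRKO, with 21.6% of all genes called lower and 19.8% higher, and the median change was -0.42. The deposited scale gave 11 lower and 15 higher, with 6.62% of all genes lower and 70.5% higher. All 17 carriers lower under PBS were also lower under CL316,243, and 2 were higher under both. How many of all tested genes kept a call under both treatments is not given here. These counts and medians include Slc25a48 (lower) and Slc25a47 (higher) under both treatments. Each of these became a member only through the genotype in which it is high.

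The agonist raised 17 carriers and lowered 1 in WT, where 18% of all genes were called higher and 12.6% lower, with a median change of 0.38. Without scaling 13 were higher and 2 lower, against 7.2% and 38.1% of all genes. In ERRKO it raised 11 and lowered none, with 6.68% of all genes called higher and 3.62% lower, and a median change of 0.25. On the deposited scale 9 were higher and none lower, against 3.23% and 13.7% of all genes. On the median-ratio scale without ERRKO_CL replicate 1 or 2, the count of higher carriers was 7, with the share of all genes in those settings not given here. Both agonist comparisons have the genotype comparisons' libraries as their own groups, so calls of a carrier across comparisons share libraries. The agonist's effect differed between genotypes for 1 carrier, lower in ERRKO, where 2.02% of all genes were called lower and 1.89% higher in the interaction. Without scaling the interaction gave 2 higher and none lower, against 3.88% and 1.26% of all genes. By the other tools on the recovered reads, edgeR lost 2 and DESeq2 none of the 77 calls made for carriers over the 5 comparisons.

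**Figure D2:**
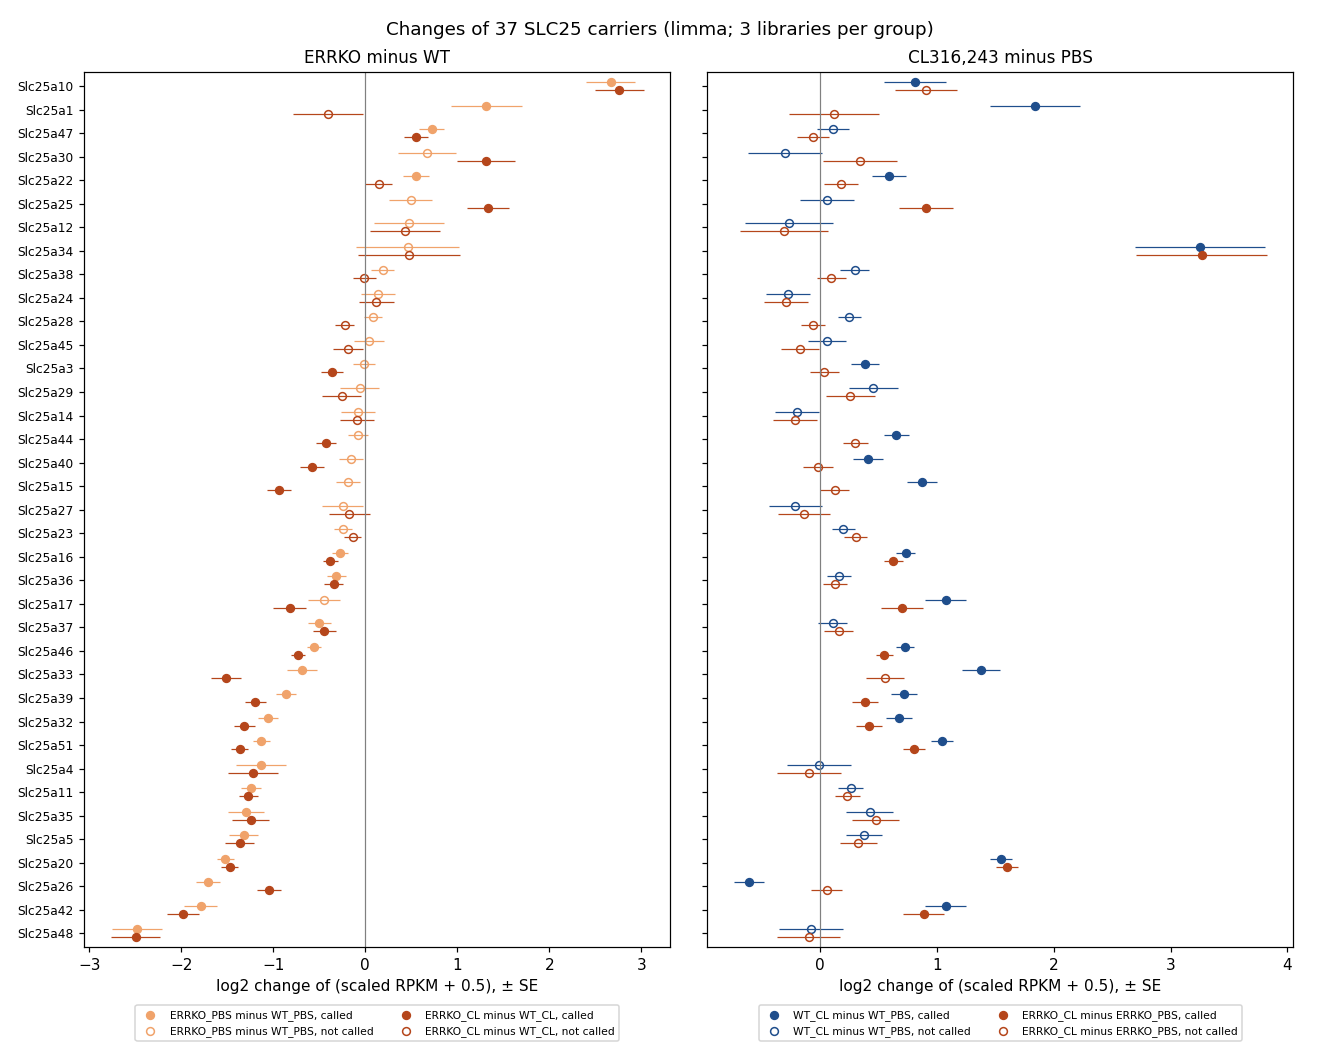
Log2 change ± SE of 37 carriers between genotypes (left) and between CL316,243 and PBS (right), 3 libraries per group, with filled points for called changes. Slc25a10 (2.66 and 2.76) lies at the top and Slc25a48 (-2.48 and -2.50) at the bottom of the genotype panel, and Slc25a34 (3.25 and 3.26) stands far to the right in the agonist panel. Slc25a48 became a member through the WT groups alone, and Slc25a47 through the ERRKO groups alone.

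Among carriers of adenine nucleotides and phosphate, both translocators were lower in ERRKO, while the phosphate carrier differed less and in a direction that depended on the scale. Slc25a4 encodes translocator 1, the main form of heart and muscle, which exchanges matrix ATP for cytosolic ADP. Its level was 294, 262 and 373 in WT_PBS, 290.2, 301 and 325 in WT_CL, 104, 109 and 239 in ERRKO_PBS, and 113, 120.0 and 165 in ERRKO_CL. Every ERRKO library lay below every WT library, and ERRKO_PBS replicate 3, the library with the most muscle transcripts, stood highest among the ERRKO libraries. On the deposited scale ERRKO_PBS replicate 3, at 324.7, lay above every WT library (207.5 to 316.8). The change was -1.14 ± 0.27 under PBS (adjusted p = 0.00691, deposited scale -0.54 with adjusted p = 0.083), and -1.22 ± 0.27 under CL316,243 (adjusted p = 0.00358, deposited scale -0.50 with adjusted p = 0.102). Without both ERRKO libraries numbered 3 the change under PBS was -1.53, and with muscle level as a covariate -1.49. The call under PBS was also lost with quantile normalization (-0.66, adjusted p = 0.0717). The agonist gave -0.01 ± 0.27 in WT and -0.09 ± 0.27 in ERRKO, neither called.

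Slc25a5 encodes translocator 2, the form of most other tissues. It stood at 263, 229 and 340.2 in WT_PBS, 369.6, 343 and 355 in WT_CL, 97.6, 131 and 102 in ERRKO_PBS, and 154, 121 and 139 in ERRKO_CL. All ERRKO libraries were below all WT libraries, whatever the treatment. It fell with the deletion under PBS (-1.32 ± 0.16, adjusted p = 4.8e-05) and under CL316,243 (-1.37 ± 0.16, adjusted p = 2.5e-05). Its agonist changes of 0.38 ± 0.16 in WT and 0.33 ± 0.16 in ERRKO were not called. Slc25a5 has processed copies elsewhere in the genome, and how reads shared with them were counted is not given in the sources used here. The ratio of Slc25a4 to Slc25a5 was 1.10 to 1.14 in WT_PBS, 0.785 to 0.915 in WT_CL and 0.732 to 1.19 in ERRKO_CL. In ERRKO_PBS it was 1.06, 0.827 and 2.35, the last in replicate 3, the library with the most muscle transcripts.

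Slc25a3 carries phosphate into the matrix for ATP synthesis. It read 127, 107 and 145 in WT_PBS, 157, 182 and 154 in WT_CL, 115, 128 and 131 in ERRKO_PBS, and 131, 116 and 137 in ERRKO_CL. WT_CL lay above every other library, and the remaining groups overlapped. The change between genotypes was -0.01 ± 0.12 under PBS (adjusted p = 0.948, deposited scale 0.58 with adjusted p = 6.8e-04), and -0.36 ± 0.12 under CL316,243 (adjusted p = 0.0327, deposited scale 0.35 with adjusted p = 0.013). Quantile normalization turned both to 0.37 (adjusted p = 0.00449) and 0.04. The agonist gave 0.39 ± 0.12 in WT (adjusted p = 0.0322, deposited scale 0.06 with adjusted p = 0.669), and 0.04 ± 0.12 in ERRKO, not called. Leaving out replicate 1 or 2 of WT_CL or of ERRKO_CL ended the genotype call under CL316,243 (adjusted p = 0.0523, 0.12, 0.0588 and 0.123). Leaving out replicate 1 or 2 of WT_PBS or of WT_CL ended the agonist call (adjusted p = 0.0639, 0.128, 0.0551 and 0.121).

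**Figure D3:**
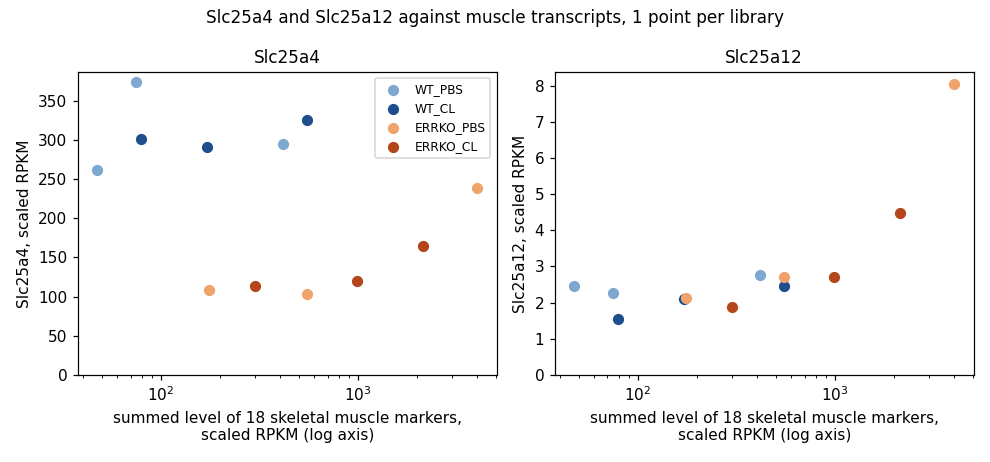
Level of Slc25a4 (left) and Slc25a12 (right) in each library against the summed level of 18 skeletal muscle markers (log axis), both in scaled RPKM. The library with the most muscle transcripts, ERRKO_PBS replicate 3, has the highest Slc25a4 of the ERRKO libraries (239) and the highest Slc25a12 of all (8.05).

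The acylcarnitine carrier Slc25a20, which brings long-chain fatty acids bound to carnitine into the matrix for oxidation, moved in opposite directions with deletion and agonist. It was at 131, 125 and 143 in WT_PBS, 418, 377 and 379 in WT_CL, 44.7, 46.6 and 46.5 in ERRKO_PBS, and 135, 156 and 132 in ERRKO_CL. WT_PBS and ERRKO_CL overlapped, WT_CL was the highest and ERRKO_PBS the lowest group. It was lower in ERRKO under PBS (-1.52 ± 0.09, adjusted p = 1.9e-07) and under CL316,243 (-1.47 ± 0.09, adjusted p = 1.6e-07). The agonist raised it in WT (1.55 ± 0.09, adjusted p = 1.3e-06) and in ERRKO (1.60 ± 0.09, adjusted p = 5.8e-06). The difference between these agonist effects was 0.05 ± 0.13, adjusted p = 0.895.

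Carriers of citrate and dicarboxylates went apart: Slc25a10 and Slc25a1 were higher and Slc25a11 lower in ERRKO_PBS than in WT_PBS. Slc25a10 encodes the dicarboxylate carrier, which exchanges malate and succinate for phosphate and is known for its abundance in white fat. Its level was 2.58, 4.06 and 7.22 in WT_PBS, 7.46, 9.54 and 6.87 in WT_CL, 34.8, 30.3 and 24.9 in ERRKO_PBS, and 60.5, 47.6 and 61.7 in ERRKO_CL. The ERRKO libraries lay above all WT libraries, with ERRKO_CL the highest. The change was 2.66 ± 0.27 under PBS (adjusted p = 1.1e-05) and 2.76 ± 0.27 under CL316,243 (adjusted p = 5.7e-06), the highest rise with the deletion among the 38. The agonist change was 0.81 ± 0.27 in WT (adjusted p = 0.0363, deposited scale 0.51 with adjusted p = 0.115), and 0.91 ± 0.27 in ERRKO (adjusted p = 0.0501). The call in WT was lost without WT_PBS replicate 1 or 2 (0.50, adjusted p = 0.128, and 0.78, adjusted p = 0.0959) and without WT_CL replicate 1, 2 or 3 (adjusted p = 0.068, 0.124 and 0.0522). With edgeR on the recovered reads it was also lost (adjusted p = 0.0617).

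Slc25a1 encodes the citrate carrier, which exports citrate as a carbon source for fatty acid synthesis. It read 54.2, 49.7 and 85.7 in WT_PBS, 125, 448 and 193 in WT_CL, 159, 204 and 111 in ERRKO_PBS, and 156, 155 and 191 in ERRKO_CL. All WT_PBS libraries were the lowest, and WT_CL replicate 2 stood far above the rest. The change with the deletion was 1.31 ± 0.38 under PBS (adjusted p = 0.0195) and -0.41 ± 0.38 under CL316,243, the latter not called. The call under PBS was lost without WT_PBS replicate 1 or 2 or ERRKO_PBS replicate 1 or 2 (adjusted p = 0.0583, 0.0682, 0.054 and 0.0699). The agonist raised Slc25a1 in WT (1.84 ± 0.38, adjusted p = 0.00387) and gave 0.12 ± 0.38 in ERRKO, not called. The difference between the agonist effects was the widest of the 38 but did not pass (-1.72 ± 0.54, adjusted p = 0.105).

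Slc25a11 encodes the oxoglutarate carrier, which exchanges oxoglutarate for malate and works in the malate-aspartate shuttle. It was 66.2, 64.1 and 77.0 in WT_PBS, 87.1, 77.7 and 83.8 in WT_CL, 26.6, 27.0 and 33.5 in ERRKO_PBS, and 34.8, 31.9 and 35.5 in ERRKO_CL. The ERRKO libraries were below all WT libraries. It was lower in ERRKO under PBS (-1.24 ± 0.11, adjusted p = 3.0e-06) and under CL316,243 (-1.27 ± 0.11, adjusted p = 1.7e-06). Its agonist changes of 0.26 ± 0.11 in WT and 0.23 ± 0.11 in ERRKO were not called. An antisense neighbour, Rnf167, shares 8.92% of its exon bases, and use of strand in counting is not given in the sources used here.

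In the aspartate and glutamate group, Slc25a22, a glutamate carrier, stood at 15.6, 15.8 and 19.6 in WT_PBS, 22.1, 30.1 and 25.5 in WT_CL, 28.1, 21.0 and 26.3 in ERRKO_PBS, and 28.2, 25.3 and 32.2 in ERRKO_CL. WT_PBS was the lowest group and the other 3 overlapped. It rose with the deletion under PBS (0.55 ± 0.15, adjusted p = 0.0119), a call lost without ERRKO_PBS replicate 1 (0.46, adjusted p = 0.0535). It also rose with the agonist in WT (0.59 ± 0.15, adjusted p = 0.00953, deposited scale 0.27 with adjusted p = 0.145). The change with the deletion under CL316,243 was 0.14 ± 0.15, not called, and on the deposited scale 0.85, adjusted p = 2.3e-04. The agonist change in ERRKO was 0.19 ± 0.15, not called. Slc25a12, the aspartate/glutamate carrier of the malate-aspartate shuttle, ran from 1.54 to 8.05 and was called in no comparison on the median-ratio scale. The deposited scale called it higher in ERRKO under PBS (0.99, adjusted p = 0.036) and under CL316,243 (1.00, adjusted p = 0.0319). Its highest values, 8.05 and 4.48, were in ERRKO_PBS replicate 3 and ERRKO_CL replicate 3, the libraries with the most muscle transcripts. Without both libraries its change between genotypes under PBS went from 0.48 to -0.05, and with muscle level as a covariate to -0.22. Its paralog Slc25a13 did not exceed an RPKM of 0.574.

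Of the carriers of cofactors and nucleotides, 7 are described: those of coenzyme A, folate, NAD and pyrimidine nucleotides. In ERRKO 6 of the 7 were called lower under PBS and 7 under CL316,243, and none higher, where 18.4% and 21.6% of all genes were lower. The deposited scale, with 6.22% and 6.62% of all genes lower and 66.3% and 70.5% higher, gave 3 lower and 1 higher under PBS, and 4 lower and 2 higher under CL316,243. The agonist raised 6 of the 7 in WT and 5 in ERRKO, against 18% and 6.68% of all genes, and on the deposited scale 6 and 4, against 7.2% and 3.23%. Their summed level was 166 to 173 (WT_PBS), 327 to 344 (WT_CL), 86.9 to 94.2 (ERRKO_PBS) and 135 to 153 (ERRKO_CL). On this median-ratio scale no 2 of these groups overlapped. The order of WT_PBS and ERRKO_CL turned on the deposited scale, where the sums of ERRKO_CL lay above those of WT_PBS.

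Slc25a42 encodes the mitochondrial coenzyme A carrier. Its level was 49.9, 43.8 and 37.5 in WT_PBS, 91.2, 95.5 and 89.9 in WT_CL, 15.1, 9.44 and 12.7 in ERRKO_PBS, and 18.2, 27.98 and 23.9 in ERRKO_CL. WT_CL was the highest group and ERRKO_PBS the lowest, and no 2 groups overlapped, though on the deposited scale WT_PBS and ERRKO_CL did. It fell with the deletion under PBS (-1.79 ± 0.18, adjusted p = 9.8e-06) and under CL316,243 (-1.98 ± 0.18, adjusted p = 2.9e-06). It rose with CL316,243 in WT (1.08 ± 0.18, adjusted p = 9.2e-04) and in ERRKO (0.89 ± 0.18, adjusted p = 0.00983), the latter lost without both ERRKO libraries numbered 3 (0.89, adjusted p = 0.0631). Slc25a16, an older candidate for coenzyme A transport, read 15.7, 16.8 and 18.1 in WT_PBS, 27.4, 27.97 and 29.5 in WT_CL, 14.3, 13.4 and 13.8 in ERRKO_PBS, and 23.8, 21.0 and 20.3 in ERRKO_CL. No 2 groups overlapped, with WT_CL the highest and ERRKO_PBS the lowest. Its small genotype changes turned sign on the deposited scale and were -0.27 ± 0.08 under PBS (adjusted p = 0.0238, deposited scale 0.30 with adjusted p = 0.0065), and -0.38 ± 0.08 under CL316,243 (adjusted p = 0.00309, deposited scale 0.32 with adjusted p = 0.00384). The call under PBS was also lost without WT_PBS replicate 2 or 3 or ERRKO_PBS replicate 2 or 3 (adjusted p = 0.0533, 0.0668, 0.0669 and 0.0584). The agonist raised Slc25a16 in WT (0.73 ± 0.08, adjusted p = 8.4e-05) and in ERRKO (0.63 ± 0.08, adjusted p = 0.00107).

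Slc25a51 encodes the NAD carrier of mitochondria. It stood at 50.4, 51.8 and 54.7 in WT_PBS, 107, 113 and 106 in WT_CL, 22.9, 25.5 and 22.7 in ERRKO_PBS, and 36.6, 46.1 and 43.1 in ERRKO_CL. The 4 groups were apart, with WT_CL the highest, but on the deposited scale WT_PBS (46.44 to 47.05) lay within ERRKO_CL (43.71 to 53.29). It was lower in ERRKO under PBS (-1.13 ± 0.09, adjusted p = 2.1e-06) and under CL316,243 (-1.37 ± 0.09, adjusted p = 2.9e-07). With the agonist it rose in WT (1.05 ± 0.09, adjusted p = 1.7e-05) and in ERRKO (0.81 ± 0.09, adjusted p = 5.0e-04).

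Slc25a32, a carrier of folate and FAD, read 9.09, 7.54 and 7.10 in WT_PBS, 12.8, 14.4 and 11.5 in WT_CL, 3.28, 3.49 and 3.81 in ERRKO_PBS, and 4.72, 4.71 and 5.198 in ERRKO_CL. The groups did not overlap, in the order WT_CL, WT_PBS, ERRKO_CL and ERRKO_PBS, though on the deposited scale WT_PBS overlapped WT_CL and ERRKO_CL. It fell with the deletion under PBS (-1.06 ± 0.11, adjusted p = 1.7e-05) and under CL316,243 (-1.31 ± 0.11, adjusted p = 1.9e-06). The agonist raised it in WT (0.67 ± 0.11, adjusted p = 9.6e-04) and in ERRKO (0.42 ± 0.11, adjusted p = 0.0353, deposited scale 0.25 with adjusted p = 0.187). The call in ERRKO was lost without WT_CL replicate 1 (adjusted p = 0.0515), ERRKO_PBS replicate 1 or 2 (0.126 and 0.0784) or ERRKO_CL replicate 1, 2 or 3 (0.0725, 0.078 and 0.111).

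The pyrimidine nucleotide carriers Slc25a33 and Slc25a36 serve the synthesis of mitochondrial DNA and RNA. Slc25a33 was 7.68, 8.88 and 12.3 in WT_PBS, 24.3, 26.4 and 25.2 in WT_CL, 6.97, 5.22 and 4.99 in ERRKO_PBS, and 9.76, 7.63 and 8.40 in ERRKO_CL. WT_CL stood above all other libraries, and ERRKO_CL overlapped WT_PBS. It fell with the deletion under PBS (-0.69 ± 0.16, adjusted p = 0.00621, deposited scale -0.13 with adjusted p = 0.45) and under CL316,243 (-1.51 ± 0.16, adjusted p = 1.5e-05). CL316,243 raised it in WT (1.38 ± 0.16, adjusted p = 1.1e-04), while the change in ERRKO just missed (0.55 ± 0.16, adjusted p = 0.0504). The difference between the agonist effects was -0.82 ± 0.23, adjusted p = 0.0698. With muscle level as a covariate the genotype call under PBS was lost (-0.52, adjusted p = 0.0564), and an antisense gene shares 14.9% of the exon bases of Slc25a33. For Slc25a36 the levels ran from 10.5 to 17.1, and its agonist changes of 0.16 ± 0.10 in WT and 0.13 ± 0.10 in ERRKO were not called. Its genotype changes turned sign on the deposited scale and were -0.32 ± 0.10 under PBS (adjusted p = 0.0321, deposited scale 0.25 with adjusted p = 0.0546), and -0.35 ± 0.10 under CL316,243 (adjusted p = 0.0177, deposited scale 0.35 with adjusted p = 0.0127). Slc25a36 lost the first call without WT_PBS replicate 1 or 2 or ERRKO_PBS replicate 1 or 3 (adjusted p = 0.103, 0.0979, 0.106 and 0.0921). It lost the second without WT_CL replicate 2 or ERRKO_CL replicate 1 (adjusted p = 0.0693 and 0.0663).

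Slc25a17 differs from the rest in place, since it is the carrier of coenzyme A, FAD and NAD in the membrane of peroxisomes. It stood at 24.9, 23.0 and 29.6 in WT_PBS, 65.7, 49.1 and 50.8 in WT_CL, 14.4, 25.0 and 18.1 in ERRKO_PBS, and 30.3, 33.2 and 28.9 in ERRKO_CL. WT_CL was the highest group, WT_PBS overlapped ERRKO_PBS and ERRKO_CL, and ERRKO_CL lay above ERRKO_PBS. The genotype change was -0.45 ± 0.18 under PBS (adjusted p = 0.0704), not called, and -0.82 ± 0.18 under CL316,243 (adjusted p = 0.00276, deposited scale -0.11 with adjusted p = 0.529). The agonist raised it in WT (1.08 ± 0.18, adjusted p = 9.4e-04) and in ERRKO (0.70 ± 0.18, adjusted p = 0.0279). The call in ERRKO was lost without ERRKO_PBS replicate 1 or 3 (adjusted p = 0.104 and 0.0719) and without ERRKO_CL replicate 1, 2 or 3 (0.0698, 0.095 and 0.0574).

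**Figure D4:**
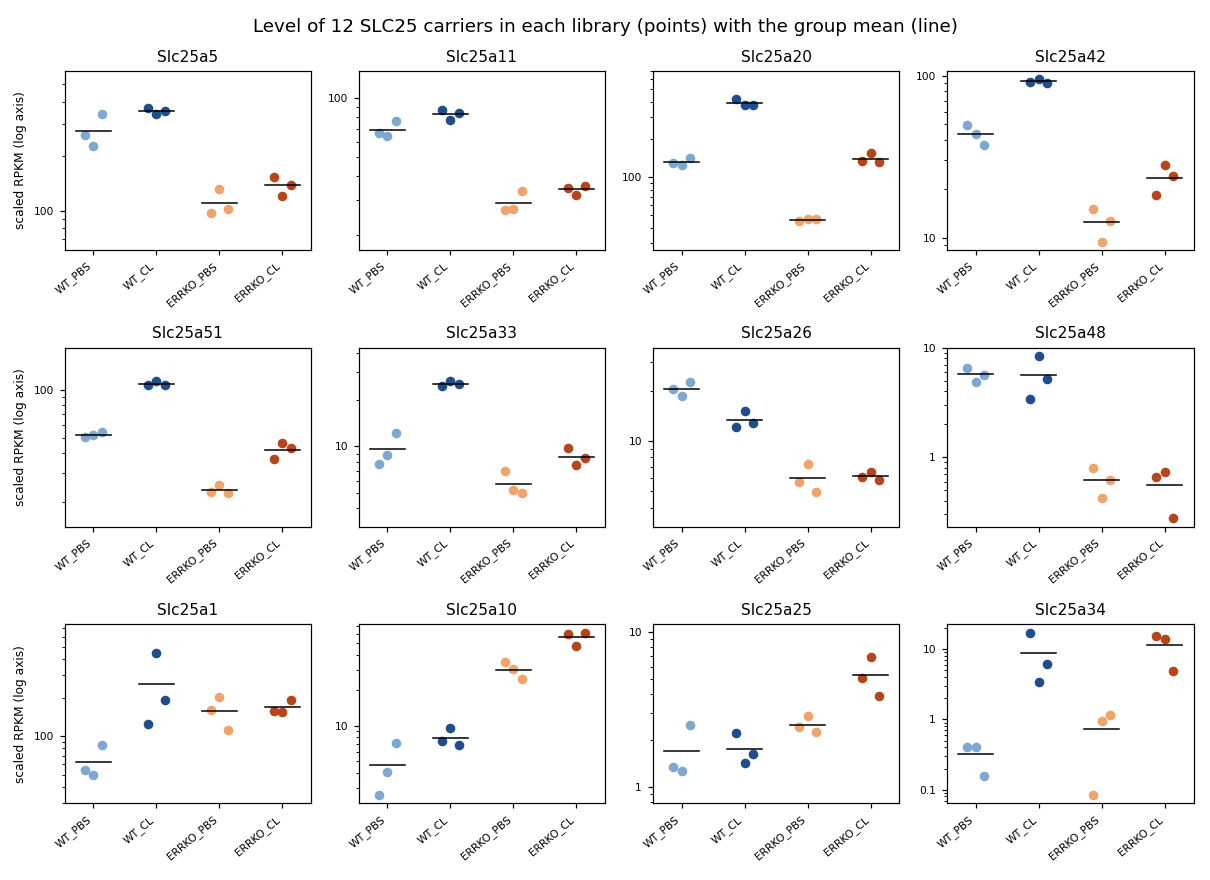
Level of 12 carriers in each library (points, scaled RPKM, log axes that differ between panels) with the group mean (line). ERRKO libraries sit below WT for Slc25a5, Slc25a11, Slc25a26 and Slc25a48, above WT for Slc25a10, and Slc25a34 is higher in each agonist library than in any PBS library.

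Among the 7 measured carriers of other amino acids, glutathione and S-adenosylmethionine, 2 were lower in ERRKO under PBS and 5 under CL316,243, and none higher, where 18.4% and 21.6% of all genes were lower. The deposited scale gave 2 lower and 4 higher under PBS (all genes 6.22% and 66.3%), and 2 lower and 2 higher under CL316,243 (6.62% and 70.5%). Slc25a39, a glutathione importer, was the most abundant. It was at 90.5, 86.1 and 103 in WT_PBS, 159, 152 and 149 in WT_CL, 44.8, 59.2 and 49.7 in ERRKO_PBS, and 71.5, 62.1 and 67.1 in ERRKO_CL. The groups did not overlap, and all WT libraries were above all ERRKO libraries, though on the deposited scale WT_PBS and ERRKO_CL overlapped. It fell with the deletion under PBS (-0.86 ± 0.11, adjusted p = 8.2e-05) and under CL316,243 (-1.19 ± 0.11, adjusted p = 4.1e-06). A link between this fall and the core motif in its promoter stretch was not tested. The motif is also in the windows of Slc25a34 and Slc25a45, not called under PBS, and of Slc25a47, called higher. After the agonist, Slc25a39 changed as follows. After CL316,243 it was higher in WT (0.72 ± 0.11, adjusted p = 6.1e-04). In ERRKO the rise passed narrowly (0.39 ± 0.11, adjusted p = 0.0447, deposited scale 0.19 with adjusted p = 0.185) and was lost when any library except WT_PBS replicate 3 or ERRKO_PBS replicate 2 was left out (adjusted p = 0.0507 to 0.169). It was also lost with edgeR on the recovered reads (adjusted p = 0.0692).

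Slc25a40, the paralog of Slc25a39, read 4.16, 3.50 and 3.16 in WT_PBS, 4.64, 4.80 and 5.38 in WT_CL, 3.01, 3.86 and 2.75 in ERRKO_PBS, and 2.86, 3.34 and 3.24 in ERRKO_CL. WT_CL was the highest group, and the other 3 overlapped. Its genotype change was -0.15 ± 0.13 under PBS (adjusted p = 0.392, deposited scale 0.37 with adjusted p = 0.0263), and -0.58 ± 0.13 under CL316,243 (adjusted p = 0.00367, deposited scale 0.06 with adjusted p = 0.691). The agonist gave 0.41 ± 0.13 in WT (adjusted p = 0.0317, deposited scale 0.12 with adjusted p = 0.493), and -0.01 ± 0.13 in ERRKO, not called. The WT call was lost without WT_PBS replicate 2 or 3 or WT_CL replicate 2 or 3 (adjusted p = 0.0855, 0.0899, 0.0645 and 0.11). The ratio of Slc25a39 to Slc25a40 was 21.8 to 34.3 in WT libraries and 14.9 to 25.0 in ERRKO libraries.

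Slc25a26 imports S-adenosylmethionine, the methyl donor of mitochondrial methylation, and was the single carrier that fell with the agonist in WT, where the deposited scale also called Slc25a24 lower. It was 20.5, 18.7 and 22.6 in WT_PBS, 12.1, 15.2 and 12.8 in WT_CL, 5.68, 7.27 and 4.97 in ERRKO_PBS, and 6.13, 6.57 and 5.85 in ERRKO_CL. WT_PBS was the highest group, WT_CL came next, and the ERRKO groups overlapped below both, though on the deposited scale ERRKO_PBS overlapped WT_CL. It fell in WT with the agonist (-0.60 ± 0.13, adjusted p = 0.00481), and the change in ERRKO was 0.06 ± 0.13, not called. It was lower in ERRKO under PBS (-1.71 ± 0.13, adjusted p = 1.2e-06) and under CL316,243 (-1.05 ± 0.13, adjusted p = 4.9e-05). The difference between agonist effects did not pass on the median-ratio scale (0.66 ± 0.19, adjusted p = 0.0691, deposited scale 0.79 with adjusted p = 0.0247).

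Slc25a15, the ornithine carrier that links mitochondria to the urea cycle and to polyamine precursors, was the carrier with a called interaction. Its level was 3.03, 3.68 and 4.28 in WT_PBS, 6.80, 7.29 and 7.15 in WT_CL, 3.45, 2.76 and 3.20 in ERRKO_PBS, and 3.55, 3.00 and 3.88 in ERRKO_CL. WT_CL stood above the other 9 libraries, which overlapped. The agonist raised it in WT (0.88 ± 0.13, adjusted p = 4.5e-04) and gave 0.13 ± 0.13 in ERRKO, not called. The difference was -0.75 ± 0.18, adjusted p = 0.0423, deposited scale -0.62 with adjusted p = 0.0752. That call was lost when any library except WT_PBS replicate 3 or ERRKO_PBS replicate 2 was left out (adjusted p = 0.0504 to 0.105). The genotype change was -0.19 ± 0.13 under PBS (adjusted p = 0.277, deposited scale 0.33 with adjusted p = 0.0349), and -0.94 ± 0.13 under CL316,243 (adjusted p = 9.7e-05, deposited scale -0.28 with adjusted p = 0.061).

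Slc25a44 is the carrier of branched-chain amino acids, a fuel of active brown fat. It read 17.9, 18.03 and 17.8 in WT_PBS, 27.0, 31.8 and 26.9 in WT_CL, 15.2, 16.3 and 19.8 in ERRKO_PBS, and 19.2, 22.3 and 21.8 in ERRKO_CL. WT_CL was the highest group, and ERRKO_PBS overlapped WT_PBS and ERRKO_CL. Its change between genotypes was -0.08 ± 0.11 under PBS (adjusted p = 0.606, deposited scale 0.50 with adjusted p = 0.00141), and -0.43 ± 0.11 under CL316,243 (adjusted p = 0.00659, deposited scale 0.27 with adjusted p = 0.0364). With the agonist it rose in WT (0.65 ± 0.11, adjusted p = 8.8e-04), and the change in ERRKO was 0.30 ± 0.11, adjusted p = 0.0963. Slc25a38, which serves glycine import for haem synthesis, and Slc25a29, a carrier of basic amino acids, were not called in any comparison on the median-ratio scale. Their levels ran from 5.26 to 8.54 and from 0.562 to 1.61, the latter on 18 to 54 reads. No WT library had more than 38 reads of Slc25a29. Each gene of the second deposited table had at least 40 in some library, so Slc25a29 became a member through the ERRKO groups alone. The deposited scale called Slc25a38 higher in ERRKO under PBS (0.74, adjusted p = 3.1e-04) and under CL316,243 (0.66, adjusted p = 6.1e-04), where its median-ratio change was -0.01.

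The ATP-Mg/phosphate carriers, which adjust the adenine nucleotide pool of the matrix and bind calcium, had 1 called member of 3. Slc25a25 stood at 1.34, 1.28 and 2.50 in WT_PBS, 2.23, 1.43 and 1.63 in WT_CL, 2.44, 2.86 and 2.26 in ERRKO_PBS, and 5.09, 6.89 and 3.87 in ERRKO_CL. ERRKO_CL was above all other libraries, and WT_PBS overlapped WT_CL and ERRKO_PBS. The change with the deletion was 0.49 ± 0.23 under PBS (adjusted p = 0.118, deposited scale 0.98 with adjusted p = 0.00137), and 1.34 ± 0.23 under CL316,243 (adjusted p = 5.8e-04). The agonist gave 0.06 ± 0.23 in WT, not called, and 0.91 ± 0.23 in ERRKO (adjusted p = 0.028), but the difference between these did not pass (0.84 ± 0.32, adjusted p = 0.186). The ERRKO call was lost without ERRKO_PBS replicate 1 or 3 (adjusted p = 0.0876 and 0.0793) or ERRKO_CL replicate 1 or 2 (0.0713 and 0.107). Reads of Slc25a25 numbered 73 to 561 a library. Slc25a23, the most abundant of the 3, ran from 31.4 to 49.6 and Slc25a24 from 1.97 to 3.78. Neither was called on the median-ratio scale, while on the deposited scale all 3 were higher in ERRKO under each treatment. There Slc25a23 gave 0.34 (adjusted p = 0.0103) under PBS and 0.57 (adjusted p = 3.0e-04) under CL316,243, against -0.24 and -0.14 on the median-ratio scale. Slc25a24 gave 0.66 (adjusted p = 0.00627) and 0.71 (adjusted p = 0.00362), and -0.52 (adjusted p = 0.0358) with the agonist in WT.

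Of the mitoferrins, which import iron for haem and iron-sulfur clusters, Slc25a37 was 4.27, 3.85 and 3.01 in WT_PBS, 3.60, 4.47 and 3.99 in WT_CL, 2.75, 2.33 and 2.303 in ERRKO_PBS, and 2.72, 2.83 and 2.86 in ERRKO_CL. Every ERRKO library was below every WT library. Its genotype change was -0.50 ± 0.13 under PBS (adjusted p = 0.00884, deposited scale 0.01 with adjusted p = 0.962), and -0.45 ± 0.13 under CL316,243 (adjusted p = 0.0129, deposited scale 0.17 with adjusted p = 0.275), so its direction was opposite on the deposited scale without a call there. The second call was lost without WT_CL replicate 2 (-0.38, adjusted p = 0.0537). Slc25a28 ran from 13.4 to 17.6 and was not called on the median-ratio scale. The deposited scale called it higher in ERRKO under PBS (0.66, adjusted p = 2.2e-04) and under CL316,243 (0.47, adjusted p = 0.002), where its median-ratio change was -0.23. The ratio of Slc25a28 to Slc25a37 was 3.24 to 4.62 in the WT libraries and 4.69 to 7.27 in the ERRKO libraries, which did not overlap.

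Of the 3 carriers that resemble uncoupling proteins, Slc25a30 was called. It read 2.60, 3.21 and 3.63 in WT_PBS, 1.86, 2.78 and 2.82 in WT_CL, 4.06, 8.10 and 4.38 in ERRKO_PBS, and 3.75, 9.40 and 8.82 in ERRKO_CL. Each ERRKO library was above each WT library. The change was 0.67 ± 0.32 under PBS (adjusted p = 0.121, deposited scale 1.21 with adjusted p = 0.0034), and 1.31 ± 0.32 under CL316,243 (adjusted p = 0.00544). The agonist gave -0.30 ± 0.32 in WT and 0.35 ± 0.32 in ERRKO, neither called. Slc25a14 and Slc25a27 did not exceed 1.65 and 1.47 and rest on at most 54 and 63 reads a library.

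Carriers with a less settled substrate held both the deepest fall with the deletion and the highest agonist response. Slc25a48, linked to choline uptake, was 6.54, 4.88 and 5.65 in WT_PBS, 3.42, 8.43 and 5.18 in WT_CL, 0.805, 0.421 and 0.619 in ERRKO_PBS, and 0.657, 0.730 and 0.276 in ERRKO_CL. All ERRKO libraries lay far below all WT libraries, on 8 to 27 reads against 63 to 152. Every gene of the second deposited table had at least 40 reads in some library, so Slc25a48 became a member through the WT groups alone. The change was -2.48 ± 0.27 under PBS (adjusted p = 2.3e-05) and -2.50 ± 0.27 under CL316,243 (adjusted p = 1.5e-05). The agonist changes of -0.08 ± 0.27 in WT and -0.09 ± 0.27 in ERRKO were not called.

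Slc25a34 stood at 0.4001, 0.409 and 0.159 in WT_PBS, 17.3, 3.44 and 6.16 in WT_CL, 0.0833, 0.958 and 1.15 in ERRKO_PBS, and 15.6, 13.9 and 4.90 in ERRKO_CL. Each agonist library was above each PBS library of both genotypes, and the spread within the groups was wide. The agonist raised it in WT (3.25 ± 0.56, adjusted p = 0.00122) and in ERRKO (3.26 ± 0.56, adjusted p = 0.00459). The change between genotypes was 0.46 ± 0.56 under PBS and 0.47 ± 0.56 under CL316,243, neither called. Its values rest on 5 to 70 reads in the PBS libraries and 111 to 849 in the agonist libraries. Its mean level in WT_PBS, 0.323, was under the 0.5 used as a filter, so it passed through the other groups.

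Slc25a35, the paralog of Slc25a34, moved otherwise. It was 45.1, 34.8 and 45.9 in WT_PBS, 46.2, 68.4 and 55.8 in WT_CL, 17.2, 22.2 and 12.0 in ERRKO_PBS, and 21.9, 25.2 and 23.2 in ERRKO_CL. The ERRKO libraries were below all WT libraries. It was lower in ERRKO under PBS (-1.30 ± 0.20, adjusted p = 3.6e-04) and under CL316,243 (-1.25 ± 0.20, adjusted p = 3.5e-04). Its agonist changes of 0.43 ± 0.20 in WT and 0.48 ± 0.20 in ERRKO were not called. An antisense neighbour, Rangrf, shares 31.3% of the exon bases of Slc25a35, so reads of the pair may not be told apart.

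Slc25a46, a protein of the outer membrane that takes part in mitochondrial dynamics, read 17.0, 17.6 and 17.7 in WT_PBS, 31.5, 28.4 and 27.99 in WT_CL, 11.0, 12.1 and 12.0 in ERRKO_PBS, and 17.0, 17.2 and 17.9 in ERRKO_CL. WT_CL was the highest group and ERRKO_PBS the lowest, while WT_PBS overlapped ERRKO_CL. On the median-ratio scale it fell with the deletion, a direction that turned under PBS on the deposited scale (-0.56 ± 0.07, adjusted p = 1.1e-04, deposited scale 0.01 with adjusted p = 0.871), and it was -0.73 ± 0.07 under CL316,243 (adjusted p = 8.7e-06, deposited scale -0.03 with adjusted p = 0.693). It rose with CL316,243 in WT (0.73 ± 0.07, adjusted p = 4.3e-05) and in ERRKO (0.55 ± 0.07, adjusted p = 0.00113). Slc25a47, known from liver, was 1.15, 1.67 and 1.22 in WT_PBS, 1.34, 1.37 and 1.76 in WT_CL, 2.66, 2.21 and 2.71 in ERRKO_PBS, and 2.27, 2.50 and 2.42 in ERRKO_CL. All ERRKO libraries were above all WT libraries, on 26 to 97 reads. No WT library had more than 36 reads, under the 40 that each gene of the second deposited table reached, so Slc25a47 became a member through the ERRKO groups alone. It rose with the deletion under PBS (0.72 ± 0.14, adjusted p = 0.00142) and under CL316,243 (0.55 ± 0.14, adjusted p = 0.00628). Slc25a45 ran from 2.10 to 3.27 and was not called on the median-ratio scale. The deposited scale called it higher in ERRKO under PBS (0.54, adjusted p = 0.0114) and under CL316,243 (0.40, adjusted p = 0.0444), where its median-ratio change was -0.19.

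Other transporters of the same membranes gave the surrounding levels. Ucp1 stood at 484, 315 and 538 in WT_PBS, 2963, 1836 and 2250 in WT_CL, 3.26, 3.95 and 6.37 in ERRKO_PBS, and 27.8, 27.6 and 54.4 in ERRKO_CL. It was the most changed member of the family, with a genotype change of -6.48 ± 0.31 under PBS and -6.03 ± 0.31 under CL316,243. Of 5 family members with other names, Ucp1, Ucp2, Mtch1 and Mtch2 were lower in ERRKO under both treatments, and Ucp3 was called under neither. Without scaling 3 were lower and 1 higher under PBS, and 4 lower and 1 higher under CL316,243. Of 20 inner membrane transporters outside the family, 10 were lower and 3 higher in ERRKO under PBS, and 12 lower and 2 higher under CL316,243. Over all genes these shares were 18.4% and 15.8%, and 21.6% and 19.8%. On the deposited scale the counts were 4 lower and 7 higher, and 5 lower and 8 higher, against 6.22% and 66.3%, and 6.62% and 70.5%. The pyruvate carrier subunits Mpc1 (-1.40 ± 0.22, adjusted p = 4.0e-04) and Mpc2 (-1.37 ± 0.19, adjusted p = 1.2e-04) were among the lower ones under PBS. The agonist raised 10 of these 20 in WT and 4 in ERRKO, against 18% and 6.68% of all genes, and on the deposited scale 8 and 1, against 7.2% and 3.23%. All 3 outer membrane channels, Vdac1, Vdac2 and Vdac3, were lower in ERRKO under both treatments, and on the deposited scale all 3 under PBS and 2 under CL316,243.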

How the data were processed

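RNA-seq of brown adipose tissue was taken from 12 libraries, 3 in each of 4 groups, for which 1 µg RNA each went into a TruSeq total RNA kit, per the labels' protocols. The submitters' processing notes list STAR 2.3.0, edgeR, cutadapt and bcl2fastq 2.16.0.10, and the builds mm9 and mm10 with no role for either. For the counting tool, its use of strand and the annotation, nothing is given in the sources used here. The authors deposited RPKM per gene, and a second table of 12380 genes whose signal values, also deposited by the authors, are whole multiples of one step per library. Dividing by that step gave whole reads for 100% of values within a tolerance of 0.01, with 8478310 to 13263567 reads per library and at least 40 reads in some library for every gene. Of that table, 9 stray cells were not used.

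RPKM values were scaled by the median of ratios and taken as log2(value + 0.5). A minimum mean RPKM of 0.5 left 12249 genes, all 38 carriers among them, which were tested with limma 3.58.1 in 1 fit of all 4 groups with 8 residual degrees of freedom. Benjamini-Hochberg adjusted p-values under 0.05 were called. The planned design held no replicate block. The count tests on the recovered reads were alternatives: edgeR 4.0.16 called 4305, 5083, 3633, 1218 and 412 genes and DESeq2 1.42.0 called 4536, 5250, 3882, 1827 and 823, for the deletion under PBS and under CL316,243, the agonist in WT and in ERRKO, and the interaction. Scripts were tested on simulated data. In all, 27 alternatives were run.

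The members and lists were chosen with earlier results of these data known. Values of 1 carrier are not reported here, though it is included in counts and sums over all 38. Described in full were, per comparison, the 5 called carriers with the largest rise and the 5 with the largest fall, all called in the interaction or in opposite directions in different comparisons, and Slc25a1, Slc25a3, Slc25a4, Slc25a5, Slc25a10, Slc25a11, Slc25a20, Slc25a25, Slc25a34, Slc25a35, Slc25a37, Slc25a42 and Slc25a44. Exon overlap came from GENCODE on GRCm38 and promoters from RefSeq on GRCm38.p6. Reads set the precision: the fewest reads in a library, under 30, were those of Slc25a34, Slc25a48, Slc25a29, Slc25a14, Slc25a27 and Slc25a47. Over 18 same-numbered pairs of libraries the correlation of deviations from the group means ran from -0.389 to 0.454, and 7 exceeded 0.1. The labels do not say whether libraries with the same number are related, and these values do not settle it.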

Additional observations from a re-analysis of the deposited data

Results flagged for a closer look

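Slc25a15, the ornithine carrier, is listed because its agonist effect differed between the genotypes by the test of the difference itself. The effect in ERRKO minus the effect in WT was -0.75 on the log2 scale with limma (adjusted p = 0.0423). It was 1 of 38 carriers, 2.63%, where 2.02% of all genes were called in that direction. It missed the threshold without scaling (-0.62, adjusted p = 0.0752), with quantile normalization (0.0548), with no filter on low values (0.0706), with muscle level as a covariate (0.051), without both ERRKO libraries numbered 3 (0.0928), with a replicate block (0.0523), and when any library except WT_PBS replicate 3 or ERRKO_PBS replicate 2 was left out (0.0504 to 0.105). Every WT_CL library was above every other library, and the remaining groups overlapped.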

How the results depend on the processing

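Of 77 calls, 77 were kept with the second deposited table, with DESeq2 and with library weights, 75 with edgeR, 71 with quantile normalization, 71 with muscle level as a covariate, 66 without both ERRKO libraries numbered 3, and 53 on the deposited scale, where 14 were lost and 10 reversed. The deposited scale gave 11 lower and 17 higher carriers for the deletion under PBS (all genes 6.22% and 66.3%), 11 and 15 under CL316,243 (6.62% and 70.5%), 2 lower for the agonist in WT (38.1%), and 0 lower and 2 higher in the interaction (1.26% and 3.88%). The cause was not tested. The 10 reversed calls were, under PBS, Slc25a16 (0.30), Slc25a36 (0.25), Slc25a37 (0.0079) and Slc25a46 (0.0137), and under CL316,243, Slc25a3 (0.35), Slc25a16 (0.32), Slc25a36 (0.35), Slc25a37 (0.17), Slc25a40 (0.0592) and Slc25a44 (0.27). Carriers not called as reported but called with the opposite sign on that scale were, under PBS, Slc25a3 (0.58), Slc25a15 (0.33), Slc25a23 (0.34), Slc25a40 (0.37) and Slc25a44 (0.50), and under CL316,243, Slc25a23 (0.57), Slc25a28 (0.47), Slc25a38 (0.66) and Slc25a45 (0.40). Quantile normalization turned Slc25a3 under both (0.37 and 0.0354).

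The interaction count of carriers with a lower effect in ERRKO, 1 as reported, was 0 with quantile normalization, with no filter on low values, with muscle as a covariate and without both ERRKO libraries numbered 3, 3 with library weights and 2 with DESeq2. Carriers with a higher effect numbered 1 with quantile normalization, with library weights and without both libraries numbered 3, and 2 with DESeq2. The agonist raised 6 in ERRKO without both libraries numbered 3. Shares of all genes with libraries left out are not given here, so such counts do not speak of the carriers alone. Leaving out 1 library gave 15 to 17 lower and 2 to 5 higher for the deletion under PBS, 19 to 22 and 4 under CL316,243, 14 to 18 higher and 1 lower for the agonist in WT, 7 to 14 higher in ERRKO, and 0 to 2 lower and 0 to 1 higher in the interaction. With a replicate block 72 of the 77 calls were kept and the interaction count was 0. In the labels the libraries share only a number, and 5 of 12 libraries correlated best with their own number. The core motif AGGTCA in place of TNAAGGTCA gave 4 carriers with a match, and TGACGTCA, chosen after seeing the data, gave 2. Read depth limits Slc25a34, Slc25a48, Slc25a29, Slc25a14, Slc25a27 and Slc25a47, each under 30 reads in some library.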

Other observations

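The 9 SLC25 symbols outside the second deposited table were near the bottom of the deposited RPKM scale in every group. Slc25a13, the second aspartate/glutamate carrier and the main form of liver, had the highest value, 0.574, and Slc25a53 reached 0.541. Slc25a54 was listed at 0 in all 12 libraries. The other 6 did not exceed 0.309.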
